A study of Mus musculus with 32 samples.

Results

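The transcripts of 9 channel genes of the detrusor, the smooth muscle of the bladder wall, were followed across age and treatment in whole mouse bladders. The genes were chosen by symbol, and all 9 were found among the 32285 genes of the count table. They are Kcnma1, Kcnmb1 and Kcnmb4 (the large-conductance, BK, potassium channel), Kcnn3 (a small-conductance, SK, potassium channel), Kcnj8 and Abcc9 (the ATP-sensitive, KATP, potassium channel), Cacna1c and Cacna1h (voltage-gated calcium channels of the L and T types) and Ryr2 (a calcium release channel of the sarcoplasmic reticulum). RNA was sequenced from 32 bladders of female C57BL/6 mice, with a single bladder per library. Untreated mice were taken at 2 months (young, n = 6), at 10 months (middle-aged, n = 5) and at 26 months (old, n = 6). Other mice, also 26 months old at collection, had been gavaged from 21 to 26 months on 3 days of each month with water (n = 5), with vehicle (n = 4) or with D+Q (n = 6). D+Q is dasatinib at 5 mg/kg/day with quercetin at 50 mg/kg/day, a combination used as a senolytic, and the vehicle is its lipid, PEG 400 and ethanol carrier. By the labels, only the untreated old mice therefore differ from the younger ones in age without gavage. The D+Q mice differ from the untreated old mice by both the gavage and the drugs.

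Detrusor muscle contracts when calcium enters through L-type channels and is released from the sarcoplasmic reticulum. Potassium channels oppose this: BK channels open with calcium and depolarization, SK channels with calcium alone, and KATP channels when cellular ATP is low. In smooth muscle, brief calcium release through ryanodine receptors can open nearby BK channels, so that a release channel may serve relaxation as well as contraction.

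Counts per bladder summed to between 15088372 and 52650259, with a median of 34074787.5. Groups were compared with edgeR's quasi-likelihood test on the counts, with Benjamini-Hochberg adjustment over all genes tested, and a gene is called changed at an adjusted p under 0.05. CPM are counts scaled to library size after TMM normalization, which corrects for the makeup of each library, and TPM are additionally scaled to gene length. The labelled tissue carried its defining transcripts, with Myh11, the smooth muscle myosin, at 10010 to 14550 CPM and Upk3a, a urothelial plaque protein, at 610.4 to 898.9 CPM in the 32 bladders. Acta1, the actin of skeletal muscle, lay at 217.5 to 980.4 CPM, and Myh6, a cardiac myosin, at 0 to 0.80 CPM. In whole tissue, fewer cells of a type and less RNA per cell cannot be told apart.

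All 9 genes passed the filter on low counts in each of the 8 comparisons. On the per-length TPM scale, the means over 32 bladders put Kcnmb1 first at 80.5, then Cacna1h at 63.0, Abcc9 at 60.6, Cacna1c at 31.2 and Kcnj8 at 30.1. Kcnn3 at 14.96 and Kcnma1 at 14.5 followed, and Ryr2 at 1.89 and Kcnmb4 at 0.86 TPM were lowest. Neighbours in that order overlapped in their ranges over the 32 bladders, except that every bladder had Abcc9 (46.5 TPM or more) above the highest Cacna1c (39.4 TPM), Kcnj8 (24.7 TPM or more) above the highest Kcnn3 (22.5 TPM) and Kcnma1 (10.9 TPM or more) above the highest Ryr2 (2.47 TPM). Kcnmb4 rested on only 10 to 50 counts per bladder. Of its 3324 exon bases, 1722 are shared with the antisense genes Kcnmb4os1 and Kcnmb4os2. The strand setting of the counting is not given in the sources used here, so its level is uncertain. Smaller overlaps with genes on the other strand affect Kcnma1 (1016 of 16976 exon bases), Cacna1h (571 of 9763) and Abcc9 (158 of 8373).

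The sequences before the starts of the genes whose transcripts changed most clearly with age are given for reference, from RefSeq on build GRCm38.p6. Ryr2, Cacna1c and Abcc9 all lie on the minus strand, and each window ends just before the annotated 5′ end of the gene in the mm10 annotation. Capitals mark matches to the motifs named after the sequences.
Ryr2, chr13:12106946-12107195: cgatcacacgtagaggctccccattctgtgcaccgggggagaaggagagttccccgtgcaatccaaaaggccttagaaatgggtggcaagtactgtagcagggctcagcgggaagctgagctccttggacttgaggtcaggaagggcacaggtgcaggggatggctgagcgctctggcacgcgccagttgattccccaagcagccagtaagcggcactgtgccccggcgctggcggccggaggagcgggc
Cacna1c, chr6:119196419-119196659: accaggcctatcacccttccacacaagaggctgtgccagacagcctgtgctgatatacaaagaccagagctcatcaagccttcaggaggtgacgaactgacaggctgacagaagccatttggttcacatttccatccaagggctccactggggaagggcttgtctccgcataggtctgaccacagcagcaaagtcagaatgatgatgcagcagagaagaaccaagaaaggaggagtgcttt
Abcc9, chr6:142702316-142702524: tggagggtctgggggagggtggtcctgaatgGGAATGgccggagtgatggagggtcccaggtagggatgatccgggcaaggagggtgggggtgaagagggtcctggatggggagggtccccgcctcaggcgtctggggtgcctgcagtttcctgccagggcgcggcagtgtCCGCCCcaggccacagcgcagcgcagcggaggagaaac
Abcc9 at the RefSeq start, chr6:142702263-142702292: tcccaccaccCTAAAAATAAtccactcgcc

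RefSeq windows of 300 bases, from 250 before to 50 after a start, were held for 8 of the 9 genes (Cacna1h had none) and were searched on both strands. A MEF2 site, the motif of a family of muscle transcription factors, was found at the start of Abcc9 and in none of the other windows. That motif occurs in 3.19% of all 32851 RefSeq windows of this length. No window held a CArG box, the serum response factor motif of many contractile genes (1.63% of all windows), nor TATAAA (13.6%) or CACGTG (7.15%). A pair of motifs was added after these searches had been seen. GGGCGG, the GC box, occurred in windows of 5 of the 8 genes and in 35.7% of all windows, and CATTCC occurred in the Abcc9 window and in 14.7% of all windows. The 8 genes had 10 windows, so the share of genes and the share of windows are not the same measure. The GC boxes of Cacna1c lay only at a start 87923 bases from the gene's 5′ end. Those of Ryr2 lay 39 and 43 bases after its start, so both are outside the printed sequences. These are matches of letters, not measured binding.

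Ryr2 rose most with age of the 9 genes. It stood at 6.58, 9.42 and 13.5 CPM (lowest, median and highest) in the young bladders and at 14.3, 13.7, 11.03, 13.9 and 19.5 CPM in the middle-aged bladders. In the untreated old bladders the lowest, median and highest were 15.7, 17.4 and 20.6 CPM. Every old bladder lay above every young bladder, while the middle-aged bladders overlapped both. In old against young bladders the log2 fold change was 0.86 ± 0.138 (SE, n = 6 and 6, adjusted p = 0.000548). The steps from young to middle-aged (0.56 ± 0.171, adjusted p = 0.0507) and from middle-aged to old (0.30 ± 0.122, adjusted p = 0.0951) did not pass the threshold on their own. The first step did pass with DESeq2 (adjusted p = 0.016), the likelihood ratio test (0.0171) and all 6 groups in one fit (0.00397). It also passed with limma (0.0494), at least 10 counts in every bladder (0.0496) and the replicate block (0.0329), but not with RLE normalization, no filter or smooth muscle scaling. No gavaged bladder lay in the young range of Ryr2. The 3 gavaged groups had means of 18.6 ± 2.03 (SD, n = 5), 17.6 ± 2.01 (n = 4) and 17.4 ± 1.12 CPM (n = 6) for water, vehicle and D+Q, and the lowest gavaged bladder was at 15.1 CPM. The summed CPM of the 5 cardiac muscle markers had medians of 276.2 in young, 350.7 in middle-aged bladders and 373.9 CPM in old bladders, nearly all of it Tnnt2 (mean 279.5, 352.2 and 372.8 CPM), a troponin, with Myh6, Nppa and Myl2 each near 0. In middle-aged against young bladders none of these markers was called higher, and Myl7 (-1.79, adjusted p = 0.0252) and Myh6 (-1.33, adjusted p = 0.0499) fell. In old against young bladders Tnnt2 rose (0.42 ± 0.138, adjusted p = 0.0403). Their part in the rise of Ryr2 was not tested.

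Cacna1c, the pore of the L-type channel, moved the other way and fell late. The lowest, median and highest values were 208.6, 214.2 and 226.2 CPM in the young bladders. The middle-aged bladders were at 194, 193, 214, 228 and 234 CPM, and the untreated old bladders ran from 163 to 190 CPM with a median of 181 CPM. No untreated old bladder reached the lowest middle-aged or young bladder. Some gavaged bladders did lie above the lowest middle-aged bladder (192.7 CPM). They were vehicle replicate 1 at 224.6 CPM, within the young range, water replicates 4 and 5 at 202.1 and 199.5 CPM, and D+Q replicate 1 at 193.8 CPM. The log2 fold change was -0.24 ± 0.0561 in old against middle-aged bladders (adjusted p = 0.0075) and -0.27 ± 0.0419 in old against young bladders (adjusted p = 0.00043). The earlier step, from young to middle-aged, was -0.02 ± 0.0562 (adjusted p = 0.892), with a 95% interval of -0.13 to 0.09. The summed level of the 12 smooth muscle contractile markers ranged from 34550 to 53010 CPM in young, from 36050 to 47990 CPM in middle-aged bladders and from 35840 to 40990 CPM in old bladders, and 6 of the 12 were called lower in old against young bladders and 5 against middle-aged bladders, with none called higher. Not all had that sign: Des was at 0.09 and 0.06 in these comparisons, and Actg2 was at 0.15 in the second, none of them called. When libraries were scaled to these markers, the Cacna1c difference was -0.12 in old against middle-aged bladders (adjusted p = 0.243) and -0.05 in old against young bladders (adjusted p = 0.681). That scaling moved the median of all genes to 0.21 in old against young and to 0.11 in old against middle-aged bladders.

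Ryr2 and Cacna1c moved apart in these same bladders, so a gap between young and old in their ratio follows and adds no support. The Ryr2 to Cacna1c ratio of TPM was 0.0337 ± 0.00884 (SD, n = 6) in young, 0.0502 ± 0.00911 (n = 5) in middle-aged and 0.0734 ± 0.00983 (n = 6) in untreated old bladders. The highest young bladder (0.0477) lay below the lowest untreated old bladder (0.0609), and the middle-aged bladders, at 0.0379 to 0.0616, overlapped both groups. The gavaged groups had means between 0.0724 and 0.0753, close to the untreated old group. A ratio needs no scaling between libraries, but it shows unequal change and not which gene moved.

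**Figure D1:**
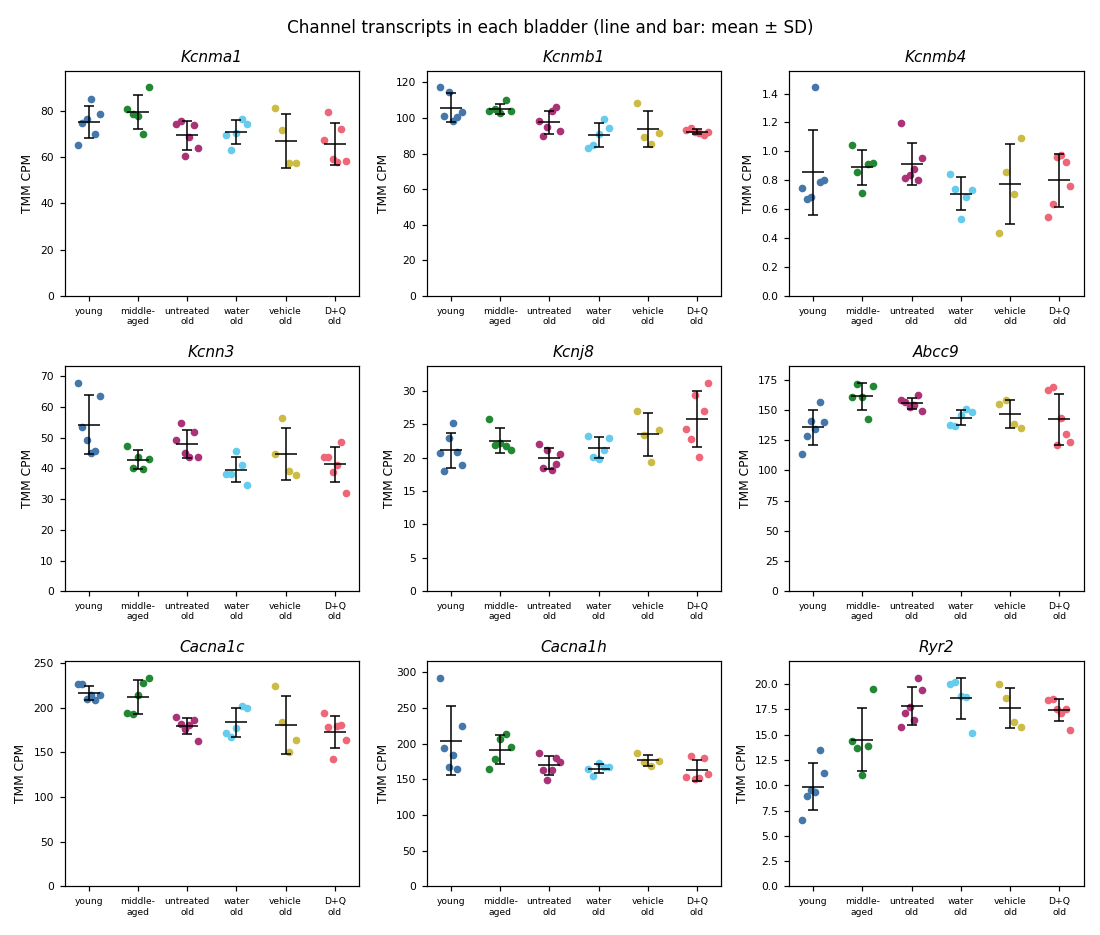
TMM CPM (vertical axes, from 0) of the 9 channel genes in each of the 32 bladders (points), by group, with lines and bars for the mean ± SD. Ryr2 is at 6.58 to 13.5 CPM in the young and at 15.7 to 20.6 CPM in the untreated old bladders, and Cacna1c is at 208.6 CPM or more in the young and at 190 CPM or less in the untreated old bladders.

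Abcc9, the sulphonylurea receptor subunit of KATP channels, rose early. The young bladders had a lowest, median and highest level of 114, 137 and 156 CPM, the middle-aged bladders were at 161, 171, 161, 143 and 170 CPM, and the untreated old bladders ran from 149 to 162 CPM with a median of 155 CPM. The young and middle-aged bladders overlapped between 143 and 156 CPM. The log2 fold change was 0.26 ± 0.0759 in middle-aged against young bladders (adjusted p = 0.0439) and 0.20 ± 0.0609 in old against young bladders (adjusted p = 0.0285). In old against middle-aged bladders it was -0.05 ± 0.0431 (adjusted p = 0.417). The gavaged old groups had Abcc9 means of 143.6 ± 6.36 (SD, n = 5), 146.6 ± 11.6 (n = 4) and 142.0 ± 21.3 CPM (n = 6) for water, vehicle and D+Q. These lay between the means of the young (135.5 CPM) and the untreated old bladders (155.4 CPM). The call in middle-aged against young bladders was lost when any one of 9 bladders was left out (adjusted p at most 0.113). The call in old against young bladders was lost when any one of 4 was left out (adjusted p at most 0.0609). The pore partner Kcnj8, which lies next to Abcc9 on chromosome 6, showed no called change with age. Its log2 fold changes were 0.11 in middle-aged against young, -0.18 ± 0.0667 in old against middle-aged (adjusted p = 0.0692) and -0.08 in old against young bladders. The Kcnj8 to Abcc9 ratio of TPM was 0.516 ± 0.0806 in young, 0.461 ± 0.0511 in middle-aged and 0.421 ± 0.0383 (SD) in untreated old bladders, with overlapping ranges. The summed level of the 7 pericyte and vascular smooth muscle markers, which mark other cells known to carry this channel pair, was 922.5 to 1223 CPM in young, 1021 to 1089 CPM in middle-aged bladders and 942.3 to 1046 CPM in old bladders.

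The remaining channel genes did not pass the threshold with age in untreated bladders in the main fits. Kcnma1, the BK pore, had means of 75.0 ± 6.89 (SD, n = 6), 79.5 ± 7.16 (n = 5) and 69.4 ± 6.17 CPM (n = 6) in young, middle-aged and old bladders, and its log2 fold change in old against middle-aged bladders was -0.20 ± 0.0681 (adjusted p = 0.0541, and 0.0374 with DESeq2). Kcnmb1, the smooth muscle BK subunit that raises calcium sensitivity, had means of 106 ± 8.07, 105 ± 2.86 and 97.6 ± 6.50 CPM, with -0.11 ± 0.0432 in the same comparison (adjusted p = 0.0884). The Kcnmb1 to Kcnma1 ratio of TPM stayed between 5.20 and 5.78 on average in all 6 groups. Kcnmb4, the BK subunit best known from neurons, was at 1.44 CPM or less in every bladder. Kcnn3 had means of 54.1 ± 9.58, 42.8 ± 3.09 and 48.0 ± 4.62 CPM, a log2 fold change of -0.33 ± 0.103 from young to middle-aged (adjusted p = 0.0571) and one of 0.17 ± 0.066 from middle-aged to old (adjusted p = 0.0902). The first of these Kcnn3 steps passed with DESeq2 (adjusted p = 0.0232), the likelihood ratio test (0.0257) and all 6 groups in one fit (0.0336). Kcnn3 was most spread in the young bladders, from 45.0 to 67.8 CPM. From young to middle-aged, 4 of 6 PDGFRA fibroblast and interstitial markers were called lower and 0 higher (median -0.53). Of 12 smooth muscle contractile markers 0 were called, and of all genes 10.8%. The part of these cells in the Kcnn3 step was not tested. Cacna1h, a T-type pore that opens at more negative voltages than Cacna1c, had means of 204 ± 48.3, 192 ± 20.2 and 169 ± 13.6 CPM. Its difference of -0.27 ± 0.124 between old and young bladders did not pass (adjusted p = 0.133), except with all 6 groups in one fit (adjusted p = 0.0338), and a single young bladder at 292 CPM stood above the other 5, at 164 to 225 CPM.

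In counts, 1 of the 9 genes (Abcc9) was called in middle-aged against young bladders, where 10.8% of all genes tested were called. In old against middle-aged bladders 1 of 9 (Cacna1c) was called, against 24.0% of all genes, and in old against young bladders 3 of 9 (Ryr2, Abcc9 and Cacna1c), against 25.1%. Groups did not overlap for 0 of 9 genes in middle-aged against young (6.97% of all genes), for 1 of 9 in old against middle-aged (14.6%) and for 2 of 9 in old against young bladders (12.7%). The channel genes had median log2 fold changes of 0.09, -0.11 and -0.11 in these comparisons, beside medians of 0.00 over all genes in each. In 9 genes, shares of this size are not a result about the channels as a group.

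The 9 bladders of water- and vehicle-gavaged old mice were also set together against the 5 middle-aged bladders. Age and gavage differ together in this comparison and cannot be told apart. Here 1 of 9 genes was called, Kcnmb1, against 13.2% of all genes. Kcnmb1 was at 104, 105, 103, 110 and 104 CPM in the middle-aged, at 83.3, 84.8, 91.2, 99.2 and 94.5 CPM in the water-gavaged and at 109, 89.3, 85.5 and 91.7 CPM in the vehicle-gavaged bladders. A single vehicle bladder lay within the middle-aged range and the other 8 gavaged bladders lay below it. The log2 fold change was -0.18 ± 0.0535 (adjusted p = 0.0325). This call was lost without any one of the 5 middle-aged bladders or without vehicle replicate 2 (adjusted p up to 0.0633), with the replicate number as a block (0.0532) and with smooth muscle scaling (0.289). Ryr2 (0.33 ± 0.113, adjusted p = 0.0628) and Cacna1c (-0.21 ± 0.0811, adjusted p = 0.0988) had the signs seen in untreated old bladders but did not pass. Abcc9 was at -0.14 ± 0.0484 (adjusted p = 0.0614). These comparisons share the middle-aged bladders.

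**Figure D2:**
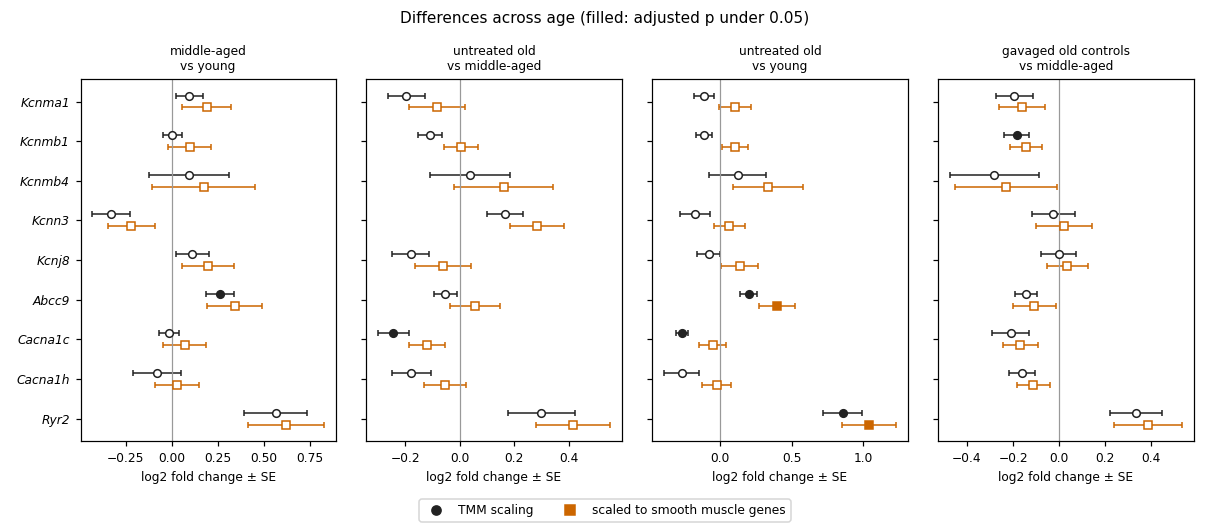
Log2 fold changes with standard errors (horizontal axes, the scale differing between panels) of the 9 genes in the 4 comparisons across age, with TMM scaling (black circles) and with libraries scaled to 12 smooth muscle genes (orange squares). Filled symbols mark an adjusted p under 0.05. In old against young bladders Ryr2 is at 0.86 with TMM and 1.04 with smooth muscle scaling, and Cacna1c moves from -0.27 to -0.05.

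Scaling to smooth muscle genes kept 2 of the calls in old against young bladders, Ryr2 (1.04, adjusted p = 0.00046) and Abcc9 (0.40, adjusted p = 0.0287). That scaling shifts all genes of a library together, so subtracting the median of all genes largely undoes it. Ryr2 then stood at 0.82, Abcc9 at 0.19 and Cacna1c at -0.26. These lie near the TMM values by construction and are not a further test. With all calls in that comparison, TMM scaling gave 2134 higher and 2095 lower genes, and smooth muscle scaling 3423 higher and 401 lower. Markers of other cell types also moved with age, in a comparison where 25.1% of all genes were called. Of 7 leukocyte markers, 6 were higher in old than in young bladders, their summed level ranging from 272.1 to 576.2 CPM in young and from 650.4 to 1411 CPM in old bladders. Of 6 PDGFRA fibroblast and interstitial markers, 5 were lower, their summed level being 10980 to 20540 CPM in young and 7044 to 8017 CPM in old bladders. The marker not called was Pdgfra itself (-0.13, adjusted p = 0.378). Most of the sum was the collagen genes Col1a1 (means 5771 and 2399 CPM in young and old) and Col3a1 (6012 and 2115 CPM). The part of these shifts in the channel results was not tested.

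Gavage alone, and D+Q, left the 9 genes without a called difference at 26 months. Water against untreated old bladders gave 0 of 9 calls at an adjusted p under 0.05, against 1.0% of all genes, with 3 of 9 at an unadjusted p under 0.05, as were 2760 of 17250 genes. DESeq2 called 1 of the 9 (Kcnn3) among 664 genes in all. Kcnn3 was at 38.2, 38.1, 45.5, 41.0 and 34.6 CPM in the water-gavaged and at 43.7 to 54.6 CPM in the untreated old bladders. A single water bladder lay within the untreated range and the other 4 lay below it. The difference was -0.28 ± 0.078 on the log2 scale (adjusted p = 0.121). Abcc9 was at -0.11 ± 0.0318 (adjusted p = 0.124) and Kcnmb4 at -0.38 ± 0.161 (adjusted p = 0.281). For vehicle against untreated old bladders edgeR called 0 of 9, with 0.00% of all genes called. Kcnj8 alone reached an unadjusted p under 0.05, at 0.24 ± 0.0935 (adjusted p = 0.541), beside 8.39% of all genes, and DESeq2 called 0 of 9 and 131 genes in all.

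Kcnj8 was the gene with the largest difference after D+Q. The untreated old bladders had a lowest, median and highest level of 18.1, 19.7 and 22.1 CPM, and the D+Q bladders of 20.1, 25.6 and 31.2 CPM. Of the 6 D+Q bladders 5 lay above every untreated old bladder, and the sixth lay within their range. The log2 fold change was 0.37 ± 0.0977 (n = 6 and 6), with an unadjusted p of 0.00202 and an adjusted p of 0.264. The edgeR test called 0 of 9 genes in this comparison, against 0.00% of all genes, with 2 of 9 at an unadjusted p under 0.05, as were 12.9% of all genes. DESeq2 called 1 of the 9, Kcnj8 (adjusted p = 0.0293), among 176 genes in all. The other gene at an unadjusted p under 0.05 was Kcnn3, at -0.22 ± 0.0903 (adjusted p = 0.356). The vehicle bladders were at 27.0, 23.4, 19.4 and 24.2 CPM for Kcnj8 and overlapped the D+Q bladders. D+Q against vehicle, the comparison that isolates the drugs, gave a Kcnj8 difference of 0.13 ± 0.126 (adjusted p = 0.994, 95% interval -0.12 to 0.38). In that comparison edgeR called 0 of 9 genes, against 0.00% of all genes, with 0 of 9 at an unadjusted p under 0.05. DESeq2 also called 0 of the 9, and 9 genes in all. The log2 fold changes of the 9 channel genes in D+Q against vehicle lay between -0.12 (Cacna1h) and 0.13 (Kcnj8). The intervals were widest for Kcnmb4, at -0.46 to 0.61.

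**Figure D3:**
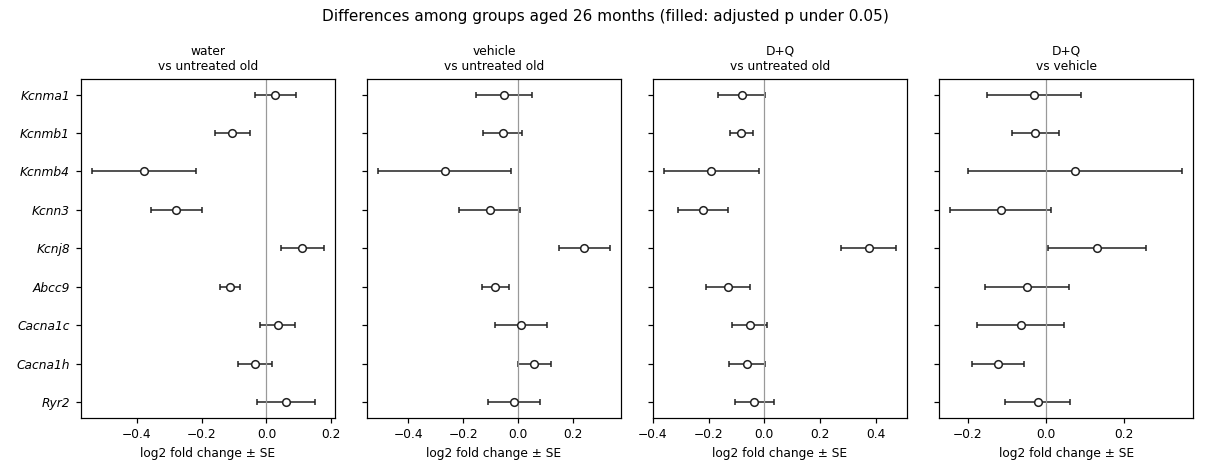
Log2 fold changes with standard errors (horizontal axes, the scale differing between panels) of the 9 genes in the 4 comparisons among groups aged 26 months, with TMM scaling. No symbol is filled, since none had an adjusted p under 0.05, and Kcnj8 is at 0.37 in D+Q against untreated old and at 0.13 in D+Q against vehicle bladders.

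The Kcnj8 to Abcc9 ratio of TPM was 0.492 ± 0.0432 (SD, n = 5) with water, 0.527 ± 0.0631 (n = 4) with vehicle and 0.616 ± 0.178 (n = 6) with D+Q, beside 0.421 in untreated old bladders. The D+Q bladders ranged from 0.442 to 0.832, the widest of the 6 groups. Abcc9 itself was the more spread after D+Q, at 120.6 to 168.9 CPM, than in untreated old bladders, at 149.3 to 161.9 CPM. The summed pericyte and vascular smooth muscle markers lay at 994.8 to 1044 CPM in the D+Q and at 942.3 to 1046 CPM in the untreated old bladders. Of these 7 markers none was called, but Higd1b, at 0.37 ± 0.12 (adjusted p = 0.294), and Ndufa4l2, at 0.24 ± 0.0987 (adjusted p = 0.352), had the largest differences, beside 0.37 for Kcnj8, and the other 5 lay between -0.06 and 0.05. Their part in the Kcnj8 difference was not tested.

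**Figure D4:**
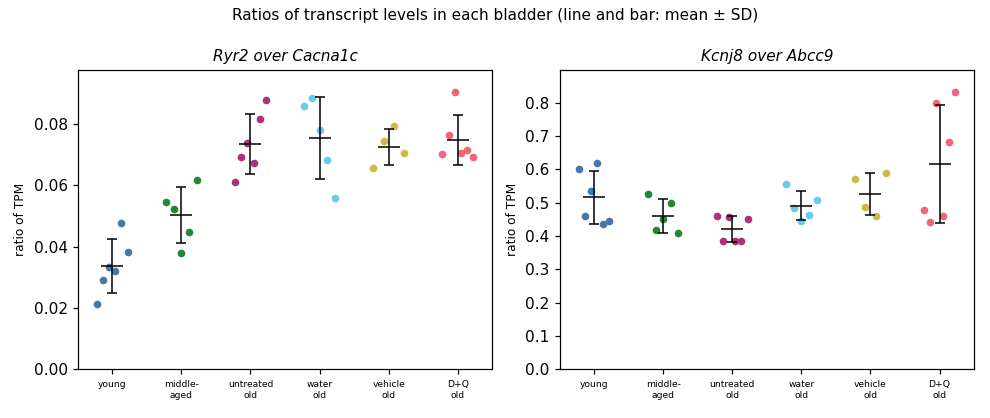
Ratio of TPM (vertical axes, from 0) of Ryr2 to Cacna1c and of Kcnj8 to Abcc9 in each bladder (points), by group, with lines and bars for the mean ± SD. The Ryr2 to Cacna1c ratio has a mean of 0.0337 in young and 0.0734 in untreated old bladders, and the Kcnj8 to Abcc9 ratio is widest after D+Q, at 0.442 to 0.832.

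Around these 9 genes, 58 others of channel families and calcium handling were listed. From young to middle-aged, 52 were tested, of which 3 rose and 8 fell, where 10.8% of all genes were called. Among genes of the sarcoplasmic reticulum, Itpr3, an inositol trisphosphate receptor, rose (0.40 ± 0.0865, adjusted p = 0.0143), as did the calcium pump gene Atp2a3 (0.34 ± 0.0948, adjusted p = 0.0359). Ryr3 fell (-0.28 ± 0.0729, adjusted p = 0.0287), and so did the calcium-storing calsequestrins Casq1 (-0.94) and Casq2 (-0.26) and the ryanodine receptor partner Fkbp1a (-0.28). The ryanodine receptors thus differed in sign over this step, since Ryr2 was at 0.56. Of 5 skeletal muscle markers tested, 3 were called lower and 0 higher over this step. Their part in the fall of Casq1 was not tested. The T-type pore gene Cacna1g was at 4.00 ± 0.173 CPM in middle-aged and 8.41 ± 4.56 CPM in young bladders and fell (-1.07), and Cacnb3, a calcium channel beta subunit, fell by 0.28. Of the potassium channels, Kcnq3 rose by 1.03 from 0.49 CPM and the background potassium channel gene Kcnk6 fell by 0.68.

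From middle-aged to old bladders, 54 were tested, of which 8 rose and 14 fell, where 24.0% of all genes were called. Of 17 other potassium channel genes 6 were lower and 2 higher, and of 18 calcium store genes 6 were lower and 3 higher. Kcnh2, the ERG channel, was at 69.9 to 80.8 CPM before and 43.2 to 61.6 CPM after this step and fell (-0.54 ± 0.0828, adjusted p = 0.00054). Kcnq5 (-0.42 ± 0.0861, adjusted p = 0.00365) and Kcna2 (-0.39), both voltage-gated channels, fell as well. Kcnk2, the stretch-activated TREK-1 channel, rose (0.45 ± 0.113, adjusted p = 0.0119), as did Kcnn4 (0.35), the intermediate-conductance channel of leukocytes and epithelia. Trdn, which anchors the release complex, fell (-0.54), while Itpr2 (0.35 ± 0.0433, adjusted p = 0.000119) and Ryr1 (0.73, from 1.48 to 2.44 CPM) rose. Ryr1 had a mean of 2.20 CPM in young bladders. The skeletal muscle marker Myh2 had means of 39.0, 6.64 and 19.8 CPM in young, middle-aged and old bladders. Of 5 skeletal muscle markers tested from middle-aged to old, 2 were called higher and 1 lower. Their part in the rise of Ryr1 was not tested. Cacna1i, a T-type pore best known from neurons, was at 1.42 to 7.19 CPM in the 6 old bladders and at 0.03 to 0.30 CPM in the middle-aged bladders. It was too low to be tested from young to middle-aged. It passed the filter on low counts here only through the old bladders, where it was high, and is counted among the 8 that rose with that limit. In old against young bladders, 7 of 53 rose and 21 fell (25.1% of all genes called), and in gavaged controls against middle-aged bladders 5 of 54 rose and 13 fell (13.2%). The median log2 fold changes were -0.01 over the 52 genes tested from young to middle-aged and -0.08 over the 54 tested from middle-aged to old. Among the 26-month groups, 1 of 53 was lower with water and 0 of 54 were called in each of the other comparisons.

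The genes whose profile over the 32 bladders lay closest to each channel gene were found by the mean absolute difference of centred log2(CPM + 0.5) values. They were Fam129a, Pdzd2 and Nbea for Kcnma1 (0.08 to 0.09), Dync1li2, Nedd4 and Mrvi1 for Kcnmb1 (0.05 to 0.06) and Dvl3, Spaca6 and Arhgef17 for Cacna1c (0.06). For Cacna1h they were Pgm5, Slc6a8 and Map1a (0.08), for Abcc9 Arhgef12, Pptc7 and Fyco1 (0.07), for Kcnn3 Lpp, E2f3 and Lhfp (0.11) and for Kcnj8 Zfp637, Gm20219 and Aimp1 (0.10). For Kcnmb4 they were Fam174b, Timmdc1 and Cnnm2 (0.13). Ryr2 had the most distant neighbours, with Eml6 (0.16) and Hmcn1 (0.17) behind a gene without a symbol. This distance grows with a gene's own spread, and Ryr2 also had the largest mean absolute deviation from its own mean (0.30, beside 0.15 for Kcnmb4 and Kcnj8). Cacna1c was the nearest of the other 8 channel genes to both Kcnma1 (0.106) and Kcnmb1 (0.098), whose own mean absolute deviations were 0.140 and 0.104. For Kcnmb1 that is hardly closer than a flat profile.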

How the data were processed

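Total RNA libraries of 32 whole bladders were used, grouped by age and treatment as labelled. The authors aligned reads to mm10 with STAR 2.7.3, assigned them to genes with featureCounts, and deposited the raw counts, with each gene's exon length in bases. The deposited normalized table, which holds log2 values, was not used. Counts were fitted in edgeR 4.0.16 (R 4.3.3) with TMM, filterByExpr and the quasi-likelihood test, on the 2 groups compared (water and vehicle were pooled in one comparison), and calls were made at 0.05 after Benjamini-Hochberg adjustment over the whole table. The fits were first tested on simulated counts. CPM used TMM factors over all 32 bladders, and TPM used the deposited lengths. The precision of low counts covers counting error only, and 3 counts were taken as the floor.

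Alternatives were DESeq2 1.42.0, RLE normalization, scaling to 12 smooth muscle genes, no filter, at least 10 counts in every bladder, the likelihood ratio test, all 6 groups in one fit, limma 3.58.1 on log2(CPM + 0.5), leaving out each bladder, and a block for the replicate number. All 9 channel genes were named in the age comparisons. Among the 26-month groups the fold changes given are those at an unadjusted p under 0.05 and both ends of the range, a selection made after the values were seen. From the related lists the 10 largest called changes were named in 2 comparisons (a single one is not reported here), and the 3 nearest genes by profile were taken among genes of at least 1 CPM. The channel genes, lists and motifs were chosen with earlier results of these data known, and 2 of the 6 motifs were added after the first 4 had been searched. Bladders with the same number in the sample titles did not deviate together (correlations -0.363 to 0.248), so numbers were not taken as pairs. The count columns carry partly different numbers in the middle-aged, water and vehicle groups, and pairing by those was not tested. No pair of bladders had identical counts.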

Additional observations from a re-analysis of the deposited data

Results flagged for a closer look

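Of 54 sets of 4 to 6 bladders (9 genes in 6 groups), 3 held a bladder far from the others of its group by Dixon's criterion, and chance marks about 5% of such sets. Kcnmb4 was at 1.44 CPM in young replicate 4, with the other young bladders at 0.674 to 0.80 CPM. Kcnj8 was at 25.8 CPM in middle-aged replicate 1, with the others at 21.1 to 22.1 CPM. Ryr2 was at 15.1 CPM in water-gavaged replicate 5, with the others at 18.8 to 20.1 CPM.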

How the results depend on the processing

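In old against young bladders, Ryr2 kept its call and direction under all 9 alternatives and in all 12 fits without a bladder (0.76 to 0.97), and Cacna1c lost its call only under smooth muscle scaling. Over all 72 log2 fold changes and 9 alternatives (648 values), 28 changed sign, 19 of them under smooth muscle scaling. Those among 46 of the 72 (all across age, and the ones given among the 26-month groups) are listed, and the rest, none called, are only counted. The cause was not tested.

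The count of called channel genes in middle-aged against young bladders (1) was 3 with DESeq2, with the likelihood ratio test and with all 6 groups in one fit, 2 with limma and with at least 10 counts in every bladder, and 0 with smooth muscle scaling. Without single bladders it ran from 0 (7 bladders, among them young replicate 1) to 3 (young replicate 5), and Abcc9 was lost without any of 9. In old against middle-aged bladders (1) it was 2 with DESeq2 and 0 with smooth muscle scaling, and 1 to 3 without single bladders (3 without middle-aged replicate 4). In gavaged controls against middle-aged bladders (1) it was 4 with DESeq2, 2 with all 6 groups in one fit and 0 with smooth muscle scaling, and 0 (without middle-aged replicate 2 or 3) to 5 (without vehicle replicate 1) without single bladders. Kcnmb1 itself was lost in 6 of these 14 fits, with other genes called in 4 of the 6. With all 6 groups in one fit, Cacna1h was added in old against young bladders (-0.27, adjusted p = 0.0338), a count of 4 in place of 3. DESeq2 called 1 in water and 1 in D+Q against untreated old bladders. The calls over all genes moved with these settings too. In middle-aged against young bladders they were 1811 in the main fit, 2700 with DESeq2 and 572 with smooth muscle scaling. The same settings gave 4110, 4617 and 2634 in old against middle-aged bladders, and 2287, 3134 and 1142 in gavaged controls. The channel gene counts are therefore not a result about these genes apart from all others.

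With the replicate block the count was 2 in old against middle-aged bladders, where Kcnj8 was added, and 0 in gavaged controls against middle-aged bladders. In middle-aged against young bladders the replicate block exchanged Abcc9 (0.27, adjusted p = 0.0688) for Ryr2 (0.62, adjusted p = 0.0329) and put Kcnmb1 at -0.00211. The block used the numbers of the sample titles, which are not labelled as a shared source, and bladders with the same title number did not correlate. Numbers of the count columns, which partly differ, were not tried.

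Signs changed as follows. Kcnmb1 in middle-aged against young bladders was -0.00308 with DESeq2, -0.00479 with RLE and -0.00859 with all 6 groups. Smooth muscle scaling gave 0.0693 for Cacna1c and 0.0288 for Cacna1h in middle-aged against young, 0.00604 for Kcnmb1 and 0.0563 for Abcc9 in old against middle-aged, and 0.105 for Kcnma1, 0.103 for Kcnmb1, 0.0637 for Kcnn3 and 0.136 for Kcnj8 in old against young bladders. In gavaged controls it gave 0.0213 for Kcnn3 and 0.0347 for Kcnj8. Without single bladders, middle-aged against young ran from -0.024 to 0.0274 for Kcnmb1, -0.0512 to 0.016 for Cacna1c and -0.135 to 0.0405 for Cacna1h. Old against middle-aged ran from -0.0444 to 0.0944 for Kcnmb4, and gavaged controls from -0.0902 to 0.0133 for Kcnn3 and from -0.0503 to 0.05 for Kcnj8. None of these had been called.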
